A study of Danio rerio with 36 samples.

Results

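Gene expression was followed 3 h after removal of the caudal fin in whole zebrafish larvae kept in medium with 130 mM glucose. The comparison used 6 of the 36 libraries of the series, 3 of cut larvae and 3 of uncut larvae in the same medium, taken by the medium and time that their labels give. All larvae were wild type. Embryos entered the glucose medium at 6 h after fertilisation, the fin was cut after 14 days of exposure, and cut larvae then went back to the same medium. The cut, made under tricaine anaesthesia, lay distal to where the spinal cord ends. The other groups drawn on were uncut and 3 h larvae in regular medium, uncut and 3 h larvae in 222 mM glucose, and the larvae cut 24 and 48 h earlier in 130 mM glucose, each with 3 libraries. The series is titled as a model of how diabetes bears on inflammation and regrowth. Each medium had 1 uncut group, whose age and time of day at sampling the sources used here do not give, so that the response to the cut cannot be told apart from time, handling or anaesthesia. No group with another solute at a matched concentration was analysed here, so glucose cannot be told apart from a rise in osmotic load. The labels do not say whether replicates came from separate animals, pools or dishes, and the p-values measure the spread between libraries, and that spread may be technical.

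In young larvae the caudal fin is a fold of epidermis over mesenchyme and actinotrichia, and it regrows after amputation. How far the fin had developed beyond that stage at the age used here was not examined. In the first hours the epidermis closes over the stump, immediate early transcription factors of the AP-1 family are switched on, interleukin 1 and prostaglandins are made, and neutrophils and then macrophages reach the wound. Matrix proteases and growth factors follow, and cells near the stump enter the cell cycle to form the blastema. The fin is a small share of a larva, and RNA of the whole animal also reports on gut, liver, muscle, brain and eye.

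The 6 libraries held between 57824788 and 62839464 counts over genes, within the range of 47904694 to 67514889 over all 36 libraries. Levels are given as counts of a gene per 1000000 counts of its library (CPM), scaled between libraries, and fold changes as log2 with a standard error (SE), so that a log2 change of 1 is a doubling. Genes with at least 1 FPKM (fragment counts scaled to transcript length and to library size) in at least 3 of the 36 libraries were tested, 20120 in all, and a gene was called when its adjusted p in edgeR's quasi-likelihood test was under 0.05. The first principal component of the 6 libraries held 66.1% of the variance and separated cut from uncut larvae. The second held 12.8% and set the first 3 h library apart from the other 2 (mean correlation 0.977 with them, against 0.986 between them). In 4 libraries, none of them among the 6, the correlation with the rest of the group was lower by over 0.02 than that between the other 2 libraries. They were replicate 3 of the uncut larvae in regular medium, replicate 3 of the uncut larvae in 222 mM, replicate 1 at 3 h in regular medium and replicate 1 at 24 h in 130 mM. The glucose itself leaves no targeted gene by which to check the labels. Defining markers of the tissues of a larva were present in the 6 libraries, among them cone opsins, fibrinogen chains of the liver, insulin, muscle actin and keratins.

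Of the genes tested, 7692 (38.2%) differed between cut and uncut larvae, 4206 higher (20.9%) and 3486 lower (17.3%). The median log2 change of the called genes was 0.72 in size, and 1930 of them passed a log2 change of 1, 1334 upwards and 596 downwards. Over all genes tested the median change was 0.01. Between the 3 cut and the 3 uncut libraries there was no overlap for 6237 genes that were higher (31.0%) and 5747 that were lower (28.6%). With the 4 deviating libraries left out, which changes only the shared estimate of the spread here, 9824 genes (48.8%) were called. A fit of the 6 libraries alone called 10147 (50.4%). Against these shares the gene lists below can be read, each setting against its own share. Cell cycle genes, cholesterol synthesis, proteasome subunits and the unfolded-protein response held far larger shares of rises than the 20.9% over all genes, and neuron and interferon genes larger shares of falls than the 17.3%. Lists overlap in a few members.

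**Figure D1:**
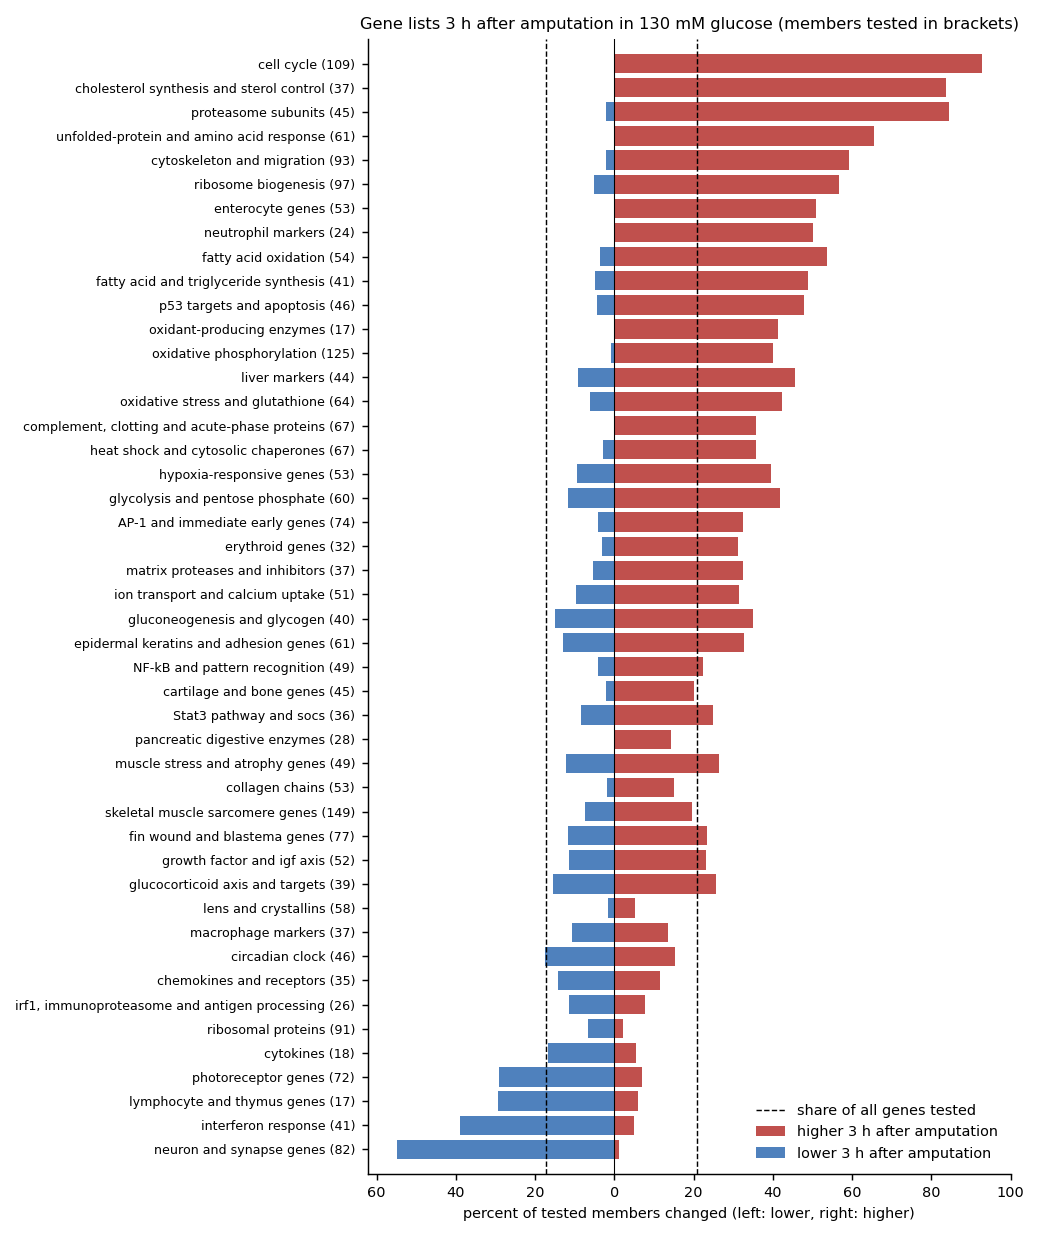
Members of each gene list called higher or lower at 3 h after amputation in 130 mM glucose, as a percent of the members tested, with the share over all 20120 genes as reference lines. The cell cycle list had 101 of 109 members higher and none lower, and the neuron and synapse list 45 of 82 lower.

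The ranking took called genes with at least 5 FPKM in their higher group, no overlap between the groups and no clone name. Genes with only a clone name, such as zgc:92590 with a log2 change of 13.23, were left out. Among the ranked genes the largest rises were those of fosl1a, apoa4a, odc1, apoa4b.3, fosb, hmgcs1, ugt5a2, sqlea, ptgs2b and nocta. They fall into an AP-1 pair, lipoproteins, a polyamine enzyme and enzymes of sterol synthesis, and most are taken up with their groups below. odc1 makes ornithine decarboxylase, the first enzyme of polyamine synthesis. It had 21.6, 20.5 and 19.9 CPM in the uncut libraries and 359, 249 and 250 CPM at 3 h, a log2 change of 3.79 ± 0.76 (SE, adjusted p = 0.00049). ugt5a2, which makes a glucuronosyltransferase, rose from 3.40, 4.28 and 3.07 CPM to 21.8, 34.1 and 28.4 CPM (log2 change 2.97 ± 0.41, adjusted p = 1.1e-05). nocta makes nocturnin, a phosphatase known from circadian and metabolic control. Its level went from 8.09, 9.43 and 7.96 CPM to 79.5, 54.9 and 51.9 CPM (log2 change 2.87 ± 0.61, adjusted p = 0.00087). In all 3 the lowest cut library lay above the highest uncut one, as the ranking required.

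AP-1 and immediate early genes rose in part. Of 74 members tested 24 were higher and 3 lower, with a median log2 change of 0.43 against 0.01 for all genes. A fit of the 6 libraries alone, with its own estimate of the spread, called 48 of them, against 50.4% of all genes. fosl1a (chromosome 14, 30739476 to 30747686, minus strand, GRCz11) makes a Fos-related AP-1 subunit. It had 5.54, 4.13 and 3.88 CPM in the uncut libraries and 107, 65.3 and 58 CPM at 3 h, a log2 change of 4.09 ± 0.91 (adjusted p = 0.0012). The first 3 h library was the highest, and the groups did not overlap, as the ranking required. fosb, a partner of Jun proteins like fosl1a, moved from 1.91, 2.22 and 0.892 CPM to 26.9, 15.2 and 13.1 CPM (log2 change 3.46 ± 0.88, adjusted p = 0.0036). atf3, a stress-induced factor of the same wider family, had 20, 19.5 and 16.9 CPM in uncut larvae and 130, 61.9 and 54.9 CPM at 3 h (log2 change 2.13 ± 0.55, adjusted p = 0.0038). In each of these genes the first 3 h library was the highest of the 3. The phosphatase gene dusp5, a feedback inhibitor of ERK, rose by 1.78 ± 0.49, egr3 by 1.74 ± 0.37 and cebpb by 1.60 ± 0.36 on the log2 scale (adjusted p = 0.0057, 0.00079 and 0.0014). junbb, a Jun subunit long used as a marker of fin injury, changed by 0.96 ± 0.30 (adjusted p = 0.012), a call that was lost without the first 3 h library. fosab, the fish counterpart of c-Fos, had 29.7, 27.8 and 22.2 CPM in uncut larvae and 56.5, 28.5 and 35.7 CPM at 3 h, and did not pass the test (log2 change 0.60 ± 0.58, adjusted p = 0.44). The 3 members that fell were klf2a, nr4a2a and nr4a2b (log2 change −1.40, −1.11 and −0.57).

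Inflammatory signals were led by il1b, which makes interleukin 1 beta (chromosome 10, 44955106 to 44964776, plus strand). Its level was 0.997, 0.827 and 1.25 CPM in the uncut libraries and 9.05, 9.79 and 8.01 CPM at 3 h. The 3 cut libraries lay close together, far above the uncut ones, and the log2 change was 3.12 ± 0.59 (adjusted p = 0.00027). It was the sole rise among 18 cytokines tested (5.56%, against 20.9% of all genes). The 3 that fell (16.7%, against 17.3%) were tnfsf10, tnfsf10l and tnfsf11, all ligands of the tumour necrosis factor family (log2 change −0.91, −0.51 and −0.80). Of these, tnfsf11 had a mean under 1 FPKM in cut and uncut larvae alike. tnfb had a log2 change of 0.54 ± 0.29 (adjusted p = 0.15) and il11a one of 0.97 ± 0.79 (adjusted p = 0.35), neither past the threshold. tnfa, il6 and il11b did not reach the level needed for testing.

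Of 35 chemokines and receptors 4 rose (11.4%, against 20.9% of all genes) and 5 fell (14.3%, against 17.3%). The rises were those of the neutrophil attractants cxcl8a and cxcl8b.1, of cxcl18b and of ccl34a.4, the last a call lost without the first or the second library of either group. cxcl8a had 0.441, 0.697 and 0.405 CPM in uncut larvae and 1.11, 1.48 and 1.45 CPM at 3 h (log2 change 1.38 ± 0.42, adjusted p = 0.0095), a low level throughout. cxcl18b went from 1.57, 1.49 and 1.62 CPM to 4.87, 2.96 and 4.15 CPM (log2 change 1.35 ± 0.37, adjusted p = 0.0051). ccl19b, one of the homeostatic chemokines that guide leukocytes in lymphoid tissue in mammals, fell from 7.32, 8.61 and 8.32 CPM to 5.32, 3.50 and 2.25 CPM (log2 change −1.13 ± 0.27, adjusted p = 0.0015). The other falls were those of ccl19a.1, cxcl19, cxcl20 and the receptor gene cxcr3.3, and the call of ccl19a.1 was lost without the third 3 h or the second uncut library.

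In the lists of downstream pathways the share of rises lay near the 20.9% of all genes. The NF-kB and pattern recognition list had 11 of 49 members higher (22.4%) and 2 lower, with a median of 0.18. ptgs2b, which makes a prostaglandin synthase of the cyclooxygenase 2 type, had 16, 16.8 and 19.3 CPM in uncut larvae and 186, 102 and 93.4 CPM at 3 h, a log2 change of 2.87 ± 0.58 (adjusted p = 0.00056). Again the first 3 h library was the highest. traf6, a signalling adaptor, rose by 0.90 ± 0.18 and tnfrsf1a, a tumour necrosis factor receptor, by 0.79 ± 0.17 on the log2 scale (adjusted p = 0.00041 and 0.00087), while the adaptor traf2a fell by 1.24 ± 0.22 (adjusted p = 0.00011). The 13 calls of this list became 7 without the first 3 h library, and 8 without either the second or the third uncut library. In the Stat3 list 9 of 36 members rose and 3 fell, with a median of 0.07. Its largest change was that of lepb, a leptin gene induced in regenerating fins, which had 0.114, 0 and 0.0811 CPM in uncut larvae and 1.60, 2.25 and 2.49 CPM at 3 h (log2 change 4.98 ± 1.12, adjusted p = 0.0011). With so few uncut reads that fitted change was 4.41 without the second uncut library and 5.63 without the first. socs3b, the feedback inhibitor of Stat3 signalling, had 40.6, 33 and 36.8 CPM before and 49.6, 38.09 and 41 CPM after the cut and did not pass the test (log2 change 0.22 ± 0.19, adjusted p = 0.37).

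Enzymes that make oxidants rose in 7 of 17 genes tested, with none lower. noxo1a, an organiser of an epithelial NADPH oxidase, went from 7.78, 6.29 and 6.39 CPM to 21.6, 17.8 and 15.8 CPM (log2 change 1.43 ± 0.23, adjusted p = 3.8e-05). Subunits of the phagocyte oxidase moved less, rac2 by 0.55 ± 0.14 and cyba by 0.52 ± 0.15 on the log2 scale (adjusted p = 0.0034 and 0.009). acod1, which makes itaconate in activated myeloid cells, rose by 1.41 ± 0.31 (adjusted p = 0.00077). nos2a, an inducible nitric oxide synthase gene, ranged from 0.399 to 4.43 CPM among the 3 h libraries and did not pass the test (log2 change 1.32 ± 0.72, adjusted p = 0.15). duox fell short of the level needed for testing.

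Neutrophil markers rose in part, and macrophage markers had calls in both directions. In RNA from whole larvae, fewer cells of a type and less RNA per cell cannot be told apart. Of 24 neutrophil genes 12 were higher (50%, against 20.9% of all genes) and none lower, with a median of 0.53. The 12 include mmp9, adam8a and both mmp13a copies, which are in the matrix protease list as well. The count of 12 was 7 without the first 3 h library or without the third uncut one. mpx, the myeloperoxidase gene by which neutrophils are usually counted, had 23.8, 24.4 and 28.1 CPM in uncut larvae and 60.5, 34.9 and 32.7 CPM at 3 h, without overlap, yet it did not pass the test (log2 change 0.75 ± 0.34, adjusted p = 0.082). The summed FPKM of the list ranged from 1116 to 1474 in uncut larvae and from 1274 to 1603 at 3 h. pnp5a, a purine nucleoside phosphorylase gene of this list, rose from 149, 156 and 155 CPM to 506, 354 and 317 CPM (log2 change 1.36 ± 0.38, adjusted p = 0.0069). Among 37 macrophage genes 5 rose (13.5%, against 20.9% of all genes) and 4 fell (10.8%, against 17.3%), with a median of −0.00. The 5 were apoeb, ctss2.1, lgmn, ms4a17a.11 and slc7a7, and the 4 were cd68, havcr1, mpeg1 and spi1b. The call of spi1b was lost without the second or the third 3 h library, and that of ctss2.1 without the first uncut one. One copy of mpeg1, the perforin-like gene that marks macrophages (chromosome 8, 19356072 to 19359834), fell from 37.1, 39.7 and 35.4 CPM to 16.9, 10.8 and 11.9 CPM (log2 change −1.5 ± 0.31, adjusted p = 0.00058). The other copy, at 29710110 to 29713621 on the same chromosome, had a log2 change of −0.26 ± 0.19 (adjusted p = 0.29). Reads of such similar copies can be assigned to either. Of 17 lymphocyte and thymus genes 5 fell, namely bcl11ba, eomesa, gata3, ikzf1 and tox, the last lost without the second 3 h library. cd3eap had a log2 change of 0.43 (adjusted p = 0.046), a call lost in 11 of the 14 alternative settings. Among those that fell, bcl11ba, eomesa and gata3 are also known from neurons.

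Genes of tissue remodelling rose in part. Of 37 matrix proteases and their inhibitors 12 were higher and 2 (adamts2 and mmp24) lower, with a median of 0.18. mmp9, a gelatinase of leukocytes and wound epidermis, rose from 16.6, 12 and 17.5 CPM to 62.8, 44.5 and 42 CPM (log2 change 1.69 ± 0.42, adjusted p = 0.003). In mmp9 every cut library lay above every uncut one. mmp13a, a collagenase gene, is listed as a pair of neighbours on chromosome 10. The copy at 38610741 to 38620514 had a log2 change of 2.28 ± 0.51 (adjusted p = 0.0013) and the copy at 38593645 to 38602561 one of 1.05 ± 0.35 (adjusted p = 0.017). The split of reads between them is uncertain, and the call of the second was lost without the first 3 h or the first uncut library.

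Of 77 fin wound and blastema genes 18 rose, a share near the 20.9% of all genes. In this list 9 fell, a smaller share than the 17.3% of all genes, and the median was 0.04. Without the 4 deviating libraries 25 rose and 16 fell. That setting called 5294 of all 20120 genes higher and 4530 lower. hbegfa, a growth factor that binds the EGF receptor, went from 17, 16.3 and 17.4 CPM to 38.3, 33.5 and 34.3 CPM (log2 change 1.07 ± 0.19, adjusted p = 9.5e-05). hmga1a, a chromatin protein active in regenerating tissue, rose by 1.08 ± 0.18 (adjusted p = 5.6e-05), and the fin fold factor dlx6a fell by 1.01 ± 0.20 (adjusted p = 0.00035). fn1b, a fibronectin gene, had 273, 197 and 220 CPM before and 400, 371 and 329 CPM after the cut, without overlap, but did not pass the test (log2 change 0.67 ± 0.31, adjusted p = 0.087).

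Epidermal keratins and adhesion genes rose in 20 of 61 cases and fell in 8, with a median of 0.25. The junction genes cldnb (a claudin) and dsg2.1 (a desmoglein) were among the risers. dsg2.1 had 84, 96.9 and 99.6 CPM in uncut larvae and 234, 257 and 236 CPM at 3 h (log2 change 1.37 ± 0.29, adjusted p = 0.00074). cldnb rose by 1.52 ± 0.38 (adjusted p = 0.0027). The summed FPKM of the list lay between 8518 and 9215 in uncut larvae and between 7985 and 8814 at 3 h, and these ranges overlapped. Cytoskeleton and migration genes moved more often, 55 of 93 upwards and 2 (map1lc3b and rnd1a) downwards, with a median of 0.45. cnn2, an actin-binding calponin gene, went from 51.2, 51.5 and 51.3 CPM to 141, 151 and 138 CPM (log2 change 1.48 ± 0.21, adjusted p = 1.2e-05). msna, which makes moesin, a link between actin and the membrane, rose by 1.24 ± 0.25 (adjusted p = 0.00037), and arpc5a, a subunit of the actin-branching Arp2/3 complex, by 1.2 ± 0.22 (adjusted p = 0.00013).

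The cell cycle list moved almost as a whole. Of its 109 members tested 101 rose and none fell, and the median log2 change was 1.5. The summed FPKM of its members ranged from 518 to 538 in uncut larvae and from 1049 to 1360 at 3 h. Genes of DNA replication were among those with the largest changes. mcm2, a subunit of the replicative helicase, had 29.3, 23.3 and 23.5 CPM in uncut larvae and 145, 108 and 108 CPM at 3 h (log2 change 2.24 ± 0.42, adjusted p = 0.00026). Mitotic genes rose as well: cdc20, an activator of the anaphase-promoting complex, went from 2.58, 1.78 and 1.90 CPM to 10.62, 10.19 and 7.75 CPM (log2 change 2.19 ± 0.30, adjusted p = 8.3e-06). cdkn1a, the inhibitor p21 of the cell cycle and a p53 target, rose beside them, from 1.78, 1.80 and 1.69 CPM to 12.3, 5.69 and 5.88 CPM (log2 change 2.18 ± 0.36, adjusted p = 6.2e-05). Of 46 p53 targets and apoptosis genes 22 rose and 2 (bcl2b and tp53i11b) fell, with a median of 0.39. Among them sesn2, a stress-induced inhibitor of growth signalling, rose by 1.68 ± 0.22 and the pro-apoptotic pmaip1 by 1.26 ± 0.36 (adjusted p = 6e-06 and 0.0069).

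**Figure D2:**
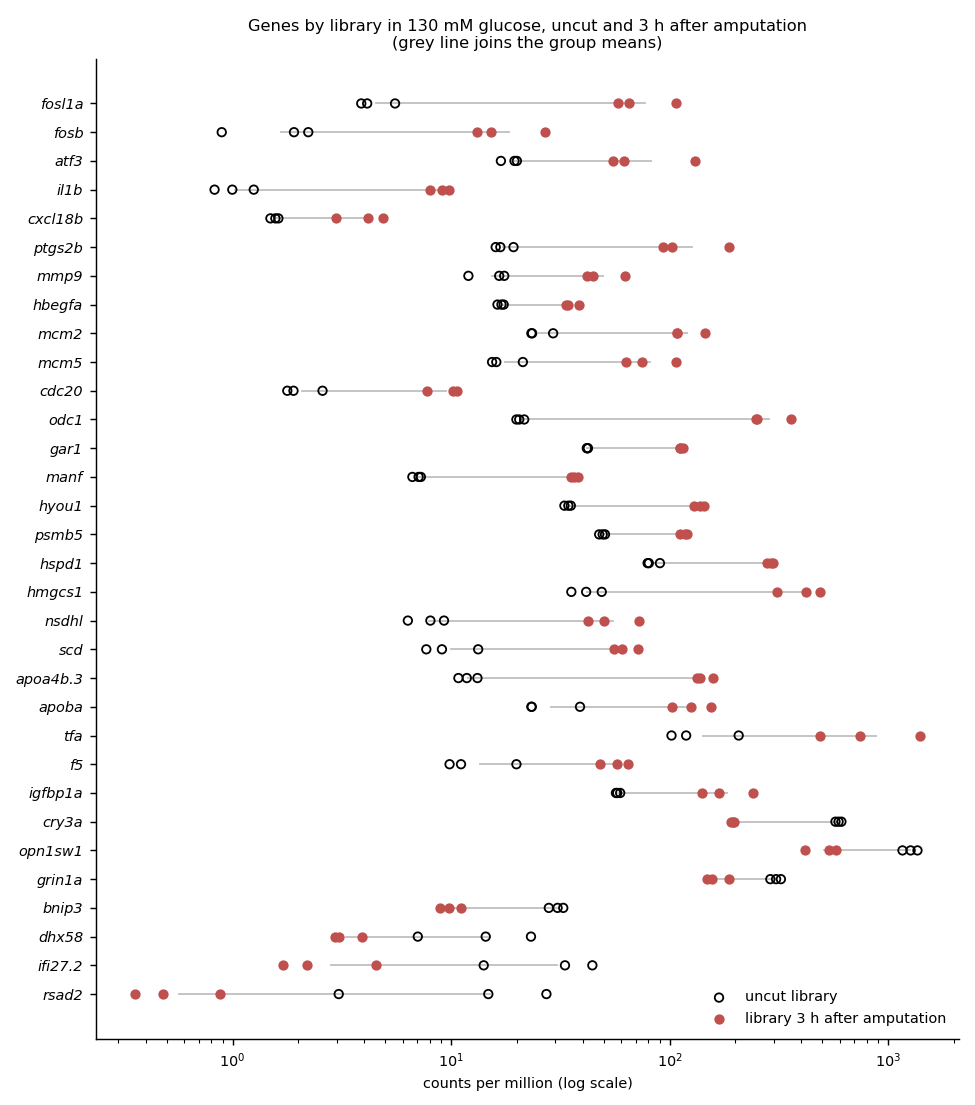
Levels of selected genes in CPM on a log axis in the 3 uncut and the 3 cut libraries in 130 mM glucose, 1 point per library. For il1b the uncut libraries lay between 0.827 and 1.25 CPM and those at 3 h between 8.01 and 9.79 CPM.

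Genes of protein making and folding rose in several lists. Of 61 genes that answer to unfolded protein or to a lack of amino acids 40 rose and none fell, with a median of 0.67. Their summed FPKM ranged from 1328 to 1357 in uncut larvae and from 2254 to 2307 at 3 h. hspa5 makes BiP, the main chaperone of the endoplasmic reticulum. It had 162, 130 and 144 CPM before and 461, 531 and 543 CPM after the cut (log2 change 1.81 ± 0.38, adjusted p = 0.00071). manf, a secreted factor induced by stress of that compartment, went from 7.27, 7.10 and 6.65 CPM to 37.9, 36.7 and 35.4 CPM (log2 change 2.39 ± 0.43, adjusted p = 0.00018). asns, asparagine synthetase and a target of Atf4, rose from 11.85, 11.27 and 7.82 CPM to 45.5, 49.5 and 39.8 CPM (log2 change 2.12 ± 0.28, adjusted p = 7.8e-06). In all 3 genes the lowest cut library lay above the highest uncut one. Of 45 proteasome genes 38 rose and the assembly factor psmg2 fell, with a median of 0.74. psmb5, the subunit with chymotrypsin-like activity, had 50.6, 47.6 and 49.4 CPM in uncut larvae and 111, 120 and 117 CPM at 3 h (log2 change 1.24 ± 0.18, adjusted p = 1.2e-05). The largest falls in the ranking, outside the interferon genes, included that of psme4a, an activator of the proteasome. It went from 191, 220 and 186 CPM to 73.6, 56 and 54.8 CPM (log2 change −1.69 ± 0.41, adjusted p = 0.0023).

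Heat shock and cytosolic chaperone genes rose in 24 of 67 cases and fell in 2 (bag5 and hsp90ab1), with a median of 0.56. In the fit of the 6 libraries alone 46 were called, against 50.4% of all genes. hspd1, the mitochondrial chaperonin, had 90.3, 80.3 and 79.3 CPM in uncut larvae and 297, 290 and 279 CPM at 3 h (log2 change 1.79 ± 0.33, adjusted p = 0.00019). hsp70l, the heat-inducible Hsp70 gene, had 19.2 CPM in the first 3 h library and 4.05 and 3.21 CPM in the others, against 1.94, 2.37 and 1.48 CPM in uncut larvae, and did not pass the test (log2 change 2.19 ± 1.02, adjusted p = 0.094). Ribosome biogenesis genes rose in 55 of 97 cases and fell in 5 (ddx21, nop53, nvl, pno1 and utp23), with a median of 0.45. gnl3, a nucleolar protein of proliferating cells, went from 30.1, 30.9 and 24.8 CPM to 77.1, 62.6 and 62.7 CPM (log2 change 1.24 ± 0.19, adjusted p = 2.4e-05). fbl, the methylase fibrillarin of ribosomal RNA, rose by 1.27 ± 0.21 (adjusted p = 5.6e-05).

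The ribosomal proteins themselves took the other direction by a small amount. Of 91 genes 6 were called lower and 2, rpl7l1 and rps27l, higher, but 80 were lower without overlap between the groups, against 28.6% of all genes, and the median was −0.25. Their summed FPKM ranged from 72401 to 75482 in uncut larvae and from 58289 to 63661 at 3 h. rpl5a, for example, had 1254, 1225 and 1193 CPM before and 898, 907 and 937 CPM after the cut (log2 change −0.42 ± 0.12, adjusted p = 0.0073). Without the 4 deviating libraries 21 were called lower. The 8 calls became 80 in the fit of the 6 libraries alone, 28 with limma on log2(FPKM + 0.1), and 4 or 5 when any 1 of the 6 libraries was left out.

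Cholesterol synthesis had the largest median rise of the 46 lists after the cell cycle. Of 37 genes tested 31 rose and none fell, the median log2 change was 1.38, and the summed FPKM went from a range of 379 to 443 in uncut larvae to 920 to 1190 at 3 h. hmgcs1 makes the enzyme that builds HMG-CoA at the head of the pathway (chromosome 10, 6010570 to 6032875, plus strand). It had 48.9, 35.5 and 41.5 CPM in uncut larvae and 487, 421 and 311 CPM at 3 h (log2 change 3.27 ± 0.58, adjusted p = 0.00018). Enzymes further down the pathway rose too. sqlea, squalene epoxidase, went from 13.3, 4.17 and 10.6 CPM to 94.6, 63.3 and 53 CPM (log2 change 2.91 ± 0.72, adjusted p = 0.0027). nsdhl, which removes methyl groups from the sterol ring, rose from 9.28, 6.34 and 8.04 CPM to 72.8, 50.2 and 42.2 CPM (log2 change 2.80 ± 0.38, adjusted p = 9.6e-06). In each of these enzymes the first 3 h library was the highest and the third the lowest. The pathway genes fdps, lss and idi1 rose by 2.50 ± 0.42, 2.37 ± 0.52 and 2.31 ± 0.38 on the log2 scale (adjusted p = 9.8e-05, 0.0011 and 7.4e-05).

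Fatty acid genes rose on both the making and the burning side. Of 41 genes of fatty acid and triglyceride synthesis 20 rose and 2 (elovl4b and slc25a1a) fell, with a median of 0.38. scd, the desaturase that makes oleate, had 13.3, 9.08 and 7.70 CPM in uncut larvae and 71.4, 60.5 and 55.6 CPM at 3 h (log2 change 2.64 ± 0.45, adjusted p = 0.00012). elovl1a, an elongase of very long chains, went from 6.73, 7.29 and 7.93 CPM to 43, 42 and 39 CPM (log2 change 2.50 ± 0.60, adjusted p = 0.0022). Of 54 genes of fatty acid oxidation 29 rose and 2 (oxct1a and ucp1) fell, with a median of 0.49. cpt1b, which carries fatty acids into mitochondria, rose from 19.4, 15.2 and 14.7 CPM to 36, 48.8 and 47.3 CPM (log2 change 1.42 ± 0.22, adjusted p = 2.9e-05). plin2, a coat protein of lipid droplets, rose by 1.95 ± 0.51 (adjusted p = 0.0044).

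Gut and liver genes were higher at 3 h than in uncut larvae of the same medium. Of 53 enterocyte genes 27 rose and none fell, with a median of 0.55, and lipoprotein genes were foremost. The summed FPKM of the enterocyte list was 2827 to 2903 in uncut and 4662 to 5689 in 3 h larvae. In uncut larvae of regular medium it was 2920 to 5619, and in those of 222 mM 2044 to 2309. apoa4a, an apolipoprotein of chylomicrons, had 1.18, 2.33 and 2.03 CPM in uncut larvae and 28.4, 23.2 and 25.8 CPM at 3 h (log2 change 3.80 ± 0.96, adjusted p = 0.0032). apoa4b.3, of the same cluster, went from 10.77, 11.83 and 13.23 CPM to 134, 138 and 158 CPM (log2 change 3.58 ± 0.78, adjusted p = 0.001). Uncut larvae had 118.5, 150.7 and 26.81 CPM of apoa4b.3 in regular medium and 15.94, 25.15 and 29.24 CPM in 222 mM. The members of this cluster are similar in sequence, and reads may be shared between them. mttp, which loads lipid onto apolipoprotein B, rose by 1.39 ± 0.29 (adjusted p = 0.00054). Of 44 liver markers 20 rose and 4, hgd, hpdb and slc10a1 among them, fell, with a median of 0.87. The 24 calls became 15 without the first 3 h or the third uncut library. The summed FPKM of the liver list was 2544 to 4005 in uncut and 4217 to 5848 in 3 h larvae. In uncut larvae of regular medium it was 2349 to 6645, and in those of 222 mM 5293 to 6766. tfa, the transferrin gene, had 207, 102 and 119 CPM in uncut larvae and 1401, 746 and 488 CPM at 3 h (log2 change 2.62 ± 0.65, adjusted p = 0.0027). In tfa the first library of each group was the highest. fgg, a fibrinogen chain, rose by 1.62 ± 0.35 (adjusted p = 0.00099), and hgd, which breaks down tyrosine, fell from 284, 260 and 288 CPM to 131, 146 and 146 CPM (log2 change −0.98 ± 0.09, adjusted p = 7.9e-08). Complement, clotting and acute-phase genes rose in 24 of 67 cases with none lower, at a median of 0.78. That count was 13 without the first 3 h library, 14 without the second uncut and 15 without the third uncut library. It was 47 without the 4 deviating libraries. The summed FPKM of this list was 619 to 982 in uncut and 1065 to 1679 in 3 h larvae. In uncut larvae of regular medium it was 637 to 2266, and in those of 222 mM 1370 to 2748. f5, clotting factor V, went from 19.87, 11.05 and 9.84 CPM to 64.2, 57.4 and 48 CPM (log2 change 2.06 ± 0.34, adjusted p = 8.7e-05).

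Genes of glucose handling changed in mixed directions. Of 60 glycolysis and pentose phosphate genes 25 rose and 7 fell, with a median of 0.34, and of 40 gluconeogenesis and glycogen genes 14 rose and 6 fell, with a median of 0.22. hk2, a hexokinase that traps glucose in the cell, had 16.3, 16.8 and 16.7 CPM in uncut larvae and 41.3, 51.8 and 52.4 CPM at 3 h (log2 change 1.55 ± 0.34, adjusted p = 0.001). g6pca, the glucose-6-phosphatase that releases glucose from the liver, went from 9.72, 5.01 and 5.17 CPM to 23, 22 and 19.9 CPM (log2 change 1.70 ± 0.26, adjusted p = 2.1e-05). slc2a1b, a glucose transporter, rose by 1.08 ± 0.20 (adjusted p = 0.00016). ins, the insulin gene, had 7.53, 6.16 and 4.51 CPM before and 18.1, 13 and 12.9 CPM after the cut (log2 change 1.27 ± 0.27, adjusted p = 0.00055), and the glucagon gene gcga rose by 1.62 ± 0.32 (adjusted p = 0.00027). Both pancreatic hormones thus rose, without overlap between the groups for ins. txnipa, which glucose induces in mammals, changed from 500, 448 and 444 CPM to 741, 717 and 697 CPM (log2 change 0.63 ± 0.20, adjusted p = 0.012). pck1, the gluconeogenic enzyme repressed by insulin, changed by 0.73 ± 0.28 (adjusted p = 0.044), a call lost in 7 of the 14 alternative settings. In the growth factor and igf list 12 of 52 rose (23.1%, against 20.9% of all genes) and 6 fell (11.5%, against 17.3%). igfbp1a, a binding protein that restrains insulin-like growth factors, went from 59.4, 57.6 and 56.8 CPM to 242, 168 and 141 CPM (log2 change 1.67 ± 0.28, adjusted p = 6.9e-05).

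Stress-responsive lists moved to differing degrees. Hypoxia-responsive genes rose in 21 of 53 cases and fell in 5 (bnip3, ca9, cited2, pdk1 and vhl), with a median of 0.28. higd1a, a mitochondrial protein induced by low oxygen, had 27.8, 28.2 and 27 CPM in uncut larvae and 136, 138 and 129 CPM at 3 h (log2 change 2.28 ± 0.42, adjusted p = 0.00025), whereas bnip3, a mitophagy receptor and a classical hypoxia target, fell from 28, 32.6 and 30.7 CPM to 8.94, 11.12 and 9.81 CPM (log2 change −1.61 ± 0.22, adjusted p = 9.4e-06). Oxidative stress and glutathione genes rose in 27 of 64 cases and fell in 4 (bach1a, fth1b, gpx1a and gpx4a), with a median of 0.38. prdx1, a peroxidase and Nrf2 target, went from 38.41, 35.11 and 37.37 CPM to 101, 112 and 103 CPM (log2 change 1.51 ± 0.22, adjusted p = 1.7e-05). Of 125 oxidative phosphorylation genes 50 rose and cox4i2 fell, with a median of 0.35. These 51 calls became 32 without the first 3 h, the second uncut or the third uncut library, and 82 in the fit of the 6 libraries alone.

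Glucocorticoid targets and clock genes, whose levels are known to follow the time of day, had calls in both directions. Of 39 glucocorticoid axis genes and targets 10 rose (25.6%, against 20.9% of all genes) and 6 fell (15.4%, against 17.3%). Their median was 0.27, and 10 calls were left without the second or the third uncut library. sgk1, a kinase induced by corticosteroids, had 130, 121 and 132 CPM in uncut larvae and 381, 332 and 370 CPM at 3 h (log2 change 1.5 ± 0.36, adjusted p = 0.0022). fkbp5, a chaperone of the receptor, rose from 177, 159 and 161 CPM to 484, 589 and 611 CPM (log2 change 1.76 ± 0.58, adjusted p = 0.02), a call lost without the second or the third uncut library. Of 46 circadian clock genes 7 rose (15.2%, against 20.9%) and 8 fell (17.4%, against 17.3%), with a median of 0.20. The 15 calls became 7 without the first 3 h library and 9 without any 1 of the uncut libraries. Without the 4 deviating libraries they were 24, and in the fit of the 6 libraries alone 34, against 48.8% and 50.4% of all genes. cry3a, a cryptochrome gene, had 593, 611 and 574 CPM in uncut larvae and 190, 198 and 194 CPM at 3 h (log2 change −1.61 ± 0.19, adjusted p = 1.1e-06). The clock repressor nr1d1 went from 18.2, 17.9 and 15 CPM to 123.9, 81.5 and 78.5 CPM (log2 change 2.47 ± 0.86, adjusted p = 0.025), but the call was lost without the first 3 h library or any 1 of the uncut ones. per1b had a log2 change of 1.46 ± 0.60 (adjusted p = 0.058).

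Interferon response genes were the leading falls. Of 41 tested 16 fell and 2, isg20 and samhd1, rose, with a median of −0.44. rsad2, which makes the antiviral enzyme viperin (chromosome 17, 35357451 to 35361322, minus strand), had 3.06, 27.3 and 14.8 CPM in uncut larvae and 0.358, 0.875 and 0.478 CPM at 3 h. The uncut libraries were uneven, the first of them lowest, and the groups did not overlap, as the ranking of the falls required. Its log2 change was −4.72 ± 1.1 (adjusted p = 0.0018), and it was −5.20 without the first and −3.97 without the second uncut library. ifi27.2, of a family of interferon-induced mitochondrial proteins, went from 14.1, 44.3 and 33.2 CPM to 2.2, 4.51 and 1.71 CPM (log2 change −3.44 ± 0.76, adjusted p = 0.0011). dhx58, an RNA sensor, fell from 7.04, 23.2 and 14.4 CPM to 3.91, 3.06 and 2.95 CPM (log2 change −2.17 ± 0.43, adjusted p = 0.00036). lgals17, a galectin gene, moved in the same way, from 7.11, 33.5 and 22.9 CPM to 1.71, 2.57 and 1.42 CPM (log2 change −3.48 ± 0.97, adjusted p = 0.0064). stat1b, a transcription factor of the pathway, fell by 1.78 ± 0.46 (adjusted p = 0.0035), a call lost in the fit of the 6 libraries alone. The fall of ifit15 (log2 change −2.68 ± 0.85, adjusted p = 0.015) was lost without the third 3 h or the second uncut library. Summed FPKM of the list ranged from 180 to 303 in uncut larvae and from 166 to 182 at 3 h, ranges that just overlapped. In uncut larvae of regular medium it was 182 to 196, and in those of 222 mM 139 to 173. At 24 and 48 h in 130 mM it was 179 to 193 and 171 to 180. Of these groups only the uncut larvae in 130 mM had a sum above 196. In the list of antigen processing genes, 3 of 26 fell (b2m, mhc1zba and stat1b) and 2 rose (psme1 and psme2). Of these, b2m and stat1b are in the interferon list as well. The 5 calls were 3 without the second 3 h or the third uncut library. The call of psme2 (adjusted p = 0.045) was lost in 8 of the 14 alternative settings, that of b2m without the second or the third library of either group, and that of psme1 without the first 3 h library.

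**Figure D3:**
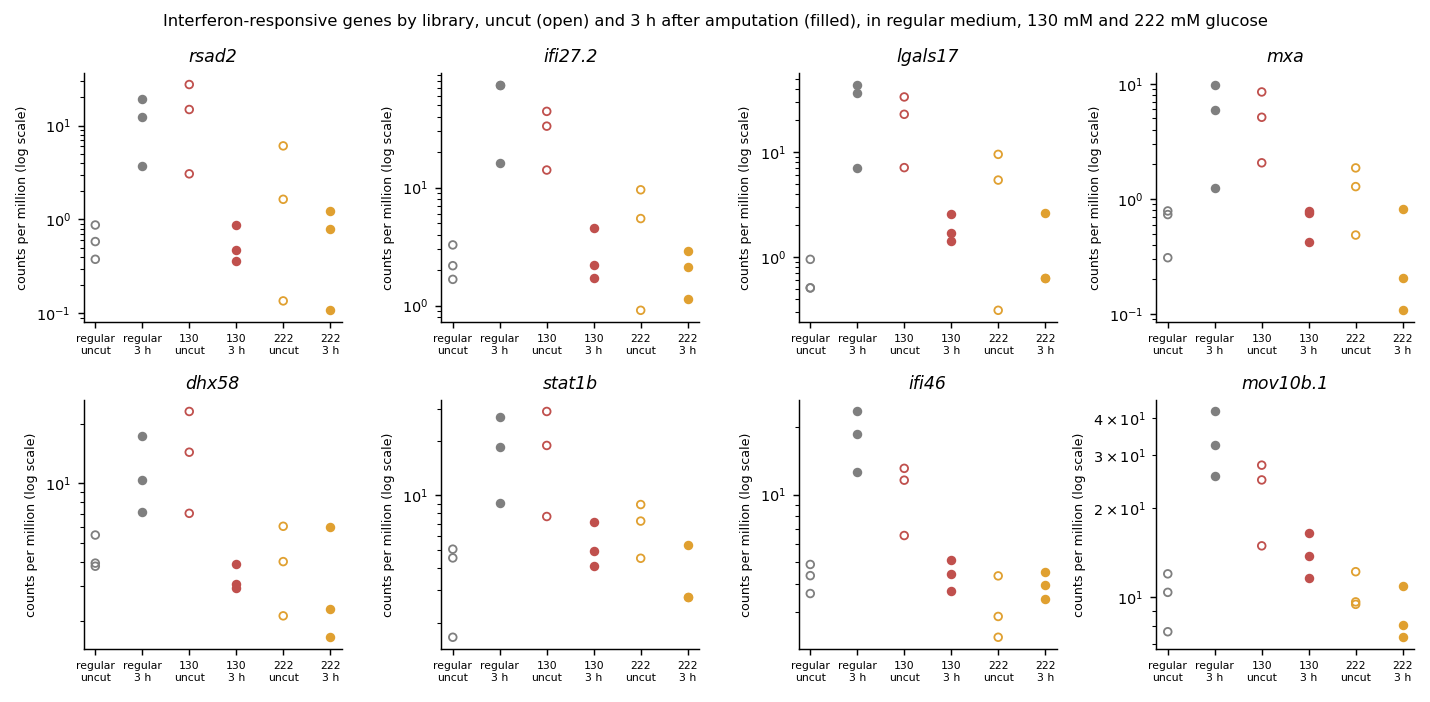
Levels of interferon response genes in CPM on a log axis in uncut and 3 h larvae of the 3 media, 1 point per library. For rsad2 the uncut libraries in 130 mM lay between 3.06 and 27.3 CPM and the 3 h libraries between 0.358 and 0.875 CPM, while in regular medium the uncut libraries lay between 0.377 and 0.873 CPM and those at 3 h between 3.74 and 19 CPM.

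Genes of the nervous system fell. Of 82 neuron and synapse genes 45 were lower and fabp7a, a marker of radial glia, was higher, with a median of −0.41. The call of fabp7a was lost without the first 3 h library. The summed FPKM of the list ranged from 2013 to 2183 in uncut larvae and from 1585 to 1770 at 3 h. grin1a, an NMDA receptor subunit, had 289, 323 and 307 CPM in uncut larvae and 148, 157 and 186 CPM at 3 h (log2 change −0.90 ± 0.15, adjusted p = 7.5e-05). slc1a2b, a glutamate transporter of glia, went from 437, 405 and 511 CPM to 246, 245 and 301 CPM (log2 change −0.77 ± 0.13, adjusted p = 7.5e-05). gria1a, an AMPA receptor subunit, fell by 0.87 ± 0.16 (adjusted p = 0.00015), and mpz, a myelin protein, by 0.77 ± 0.15 (adjusted p = 0.00019). Most falls in this list were below a log2 change of 1. Of 72 photoreceptor genes 21 fell and 5 (arr3b, gucy2d, pde6c, rpe65a and saga) rose, with a median of −0.14. The call of arr3b was lost without the second 3 h library. opn1sw1, the ultraviolet cone opsin, had 1163, 1267 and 1362 CPM before and 580, 536 and 417 CPM after the cut (log2 change −1.31 ± 0.15, adjusted p = 1.1e-06). The blue cone opsin opn1sw2 fell by 1.17 ± 0.19 (adjusted p = 3.3e-05). Among the largest falls of the ranked genes were also those of calcoco1b, opn6b, spsb3b and pcdh1g30. calcoco1b, a coiled-coil gene of autophagy, had a log2 change of −2.50 ± 0.36 (adjusted p = 2.2e-05). That of opn6b, an opsin outside the cones, was −2.13 ± 0.50 (adjusted p = 0.0019). For spsb3b it was −2.02 ± 0.45 (adjusted p = 0.0011), and for pcdh1g30, a clustered protocadherin, −1.85 ± 0.29 (adjusted p = 3.1e-05).

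In the muscle, collagen, and cartilage and bone lists the counts of calls depended on single libraries. Skeletal muscle sarcomere genes rose in 29 of 149 cases (19.5%, against 20.9% of all genes) and fell in 11 (7.38%, against 17.3%). Their median was 0.18. The 40 calls became 23 without the first 3 h library. They were 62 without the 4 deviating libraries and 69 in the fit of the 6 libraries alone. These settings called 48.8% and 50.4% of all genes. acta1b, a muscle actin, had 104, 87.4 and 97.5 CPM in uncut larvae and 1070, 371 and 398 CPM at 3 h (log2 change 2.67 ± 0.58, adjusted p = 0.001), a value of 2.0 without the first and 2.93 without the second 3 h library. Of 49 muscle stress and atrophy genes 13 rose and 6 fell, 19 calls that became 12 without the first 3 h library, 29 without the 4 and 33 in the fit of the 6. Collagen chains rose in 8 of 53 cases (15.1%), and col17a1b fell, with a median of 0.51. Of these chains 38 were higher without overlap between the groups and 1 lower, against 31.0% and 28.6% of all genes. Their 9 calls were 3 without the first 3 h library, 4 without the second uncut and 5 without the third uncut library, 37 without the 4 and 35 in the fit of the 6. Cartilage and bone genes rose in 9 of 45 cases (20%) and tnfsf11, with a mean under 1 FPKM in both groups, fell. These 10 calls were 5 without the first 3 h or the third uncut library, 6 without the third 3 h or the second uncut library, 22 without the 4 and 23 in the fit of the 6. tnfrsf11b, a decoy receptor that restrains bone resorption, rose from 8.43, 6.52 and 7.43 CPM to 28.1, 24.6 and 23.6 CPM (log2 change 1.77 ± 0.35, adjusted p = 0.00037).

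Erythroid genes rose in 10 of 32 cases and ank1b fell, 11 calls that were 7 without the first 3 h or the third uncut library, and 19 both without the 4 and in the fit of the 6. alas2, the first enzyme of haem synthesis in red cells, had 23.4, 22.3 and 21.2 CPM in uncut larvae and 58.5, 62.1 and 56.6 CPM at 3 h (log2 change 1.40 ± 0.26, adjusted p = 0.00017). Ion transport and calcium uptake genes rose in 16 of 51 cases and fell in 5 (atp2b2, miox, nfat5b, slc12a10.3 and vdrb), of which miox was not called in the fit of the 6. slc41a1, a magnesium transporter, went from 5.31, 3.47 and 3.29 CPM to 18.7, 20.5 and 17.5 CPM (log2 change 2.23 ± 0.27, adjusted p = 1.5e-06), while trpv6, the epithelial calcium channel, had 43.7 CPM in the first 3 h library and 122.8 and 111 CPM in the others and did not pass the test (log2 change −0.08 ± 0.21, adjusted p = 0.79). Of 28 genes of pancreatic digestive enzymes 4 rose (cela1.7, pdia2, prss60.2 and zgc:92590), at a median of 0.07. The call of pdia2 (adjusted p = 0.049) was lost in 7 of the 14 alternative settings. Of 58 lens genes 3 rose (cryba1a, gja3 and gja8b) and crybg1a fell, at a median of −0.11. The 3 that rose had means under 1 FPKM in cut and uncut larvae alike. These 4 calls were 1 without any of the 6 libraries but the third 3 h library. They were 7 without the 4 and 28 in the fit of the 6, which called 50.4% of all genes. The call of crybg1a was lost without the first 3 h, the first uncut or the second uncut library.

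The same step, uncut to 3 h, was measured in the other media with separate libraries. In regular medium 3038 genes (15.1%) were called, 1617 higher (8.04%) and 1421 lower (7.06%), and in 222 mM glucose 180 (0.895%), 103 higher (0.512%) and 77 lower (0.383%). These counts were not tested against each other, and 3 of the 4 libraries that deviate from their groups are uncut or 3 h libraries of those media. Cell cycle genes had a median log2 change of 1.5 in 130 mM, 0.89 in regular medium and 0.21 in 222 mM, with 101, 51 and 0 members called higher. For cholesterol synthesis the medians were 1.38, 0.29 and 0.24, and for the proteasome 0.74, 0.37 and −0.04. The order differed for oxidative phosphorylation, with 0.35 in 130 mM, 0.43 in regular medium and 0.31 in 222 mM, and for epidermal keratins and adhesion genes, with 0.25, 0.40 and 0.24. il1b had log2 changes of 3.12, 1.34 and 1.51 in the order 130 mM, regular medium and 222 mM.

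**Figure D4:**
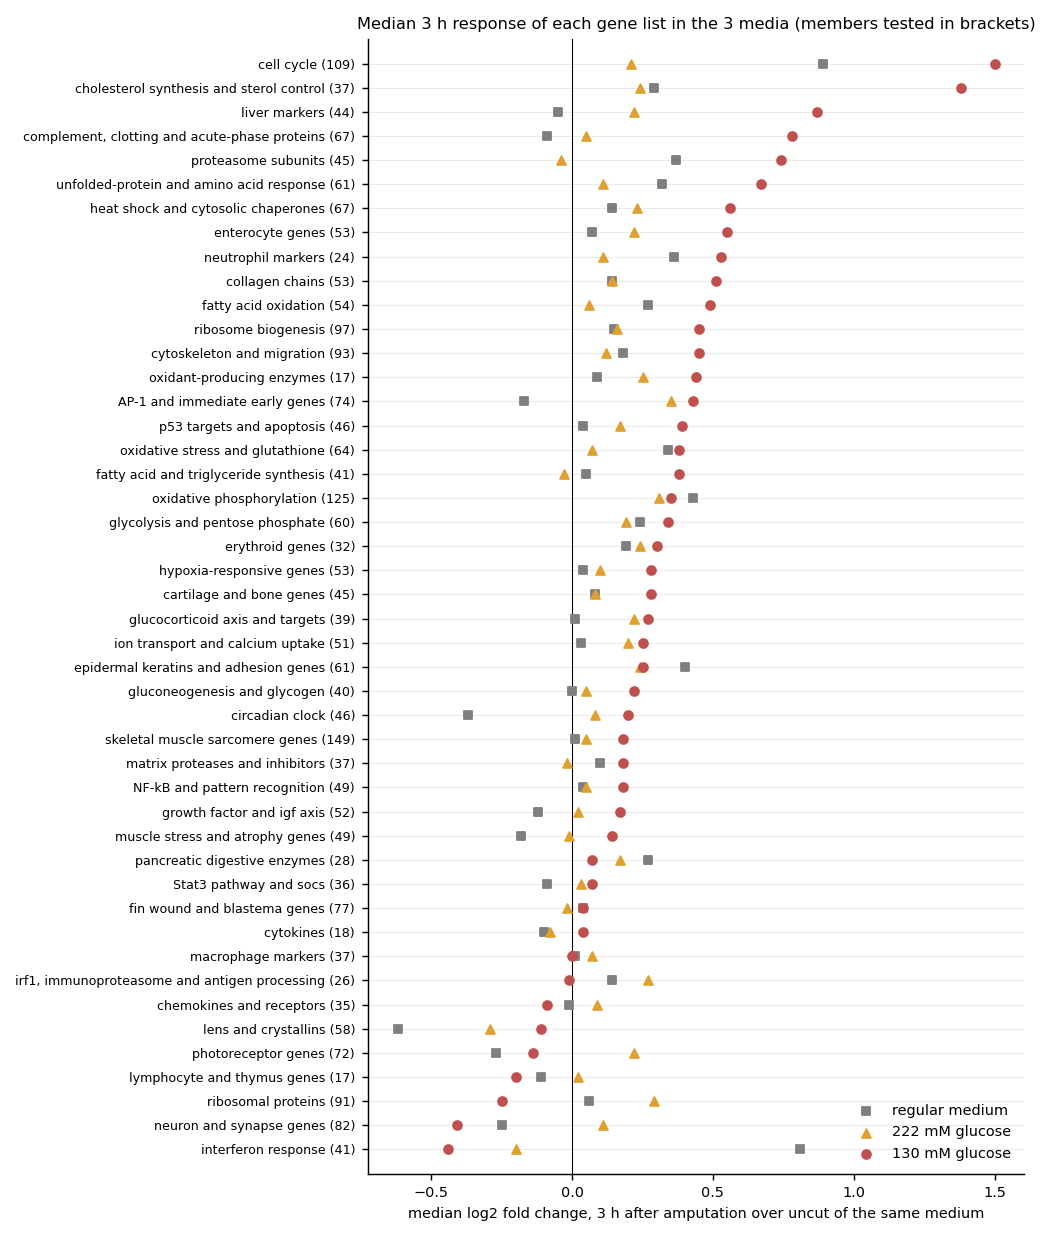
Median log2 change from uncut to 3 h over the tested members of each list, in 130 mM glucose, regular medium and 222 mM glucose, 1 point per medium. The cell cycle medians were 1.5, 0.89 and 0.21, and those of the interferon list −0.44, 0.81 and −0.20.

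Whether the response in 130 mM differed from that in regular medium was tested as the difference of the changes. This called 1380 genes (6.86%), 795 in which the change in 130 mM was the more positive (3.95%) and 585 in which it was the more negative (2.91%). The count rests on single libraries: it ranged from 316 to 4115 when 1 of the 12 was left out. Without the 4 deviating libraries, of which 2 belong to the regular medium groups, it was 7793 (38.7%), 4304 more positive and 3489 more negative. In regular medium it was 624, 508 and 4115 without the first, the second and the third uncut library, and 3971, 316 and 487 without the first, the second and the third 3 h library. In 130 mM it was 862, 789 and 521 without the first, the second and the third uncut library, and 623 and 850 without the first and second 3 h library. A fit of these 12 libraries alone called 111 genes, among them rsad2, ifi27.2 and igfbp1a but not hmgcs1. Cholesterol synthesis had 16 of 37 members with a more positive change and none more negative (31 and 1 without the 4), with a median difference of 1.18. For hmgcs1 the difference was 3.53 ± 0.78 (adjusted p = 0.01). In regular medium its uncut libraries had 185, 265 and 19.3 CPM and its 3 h libraries 242, 75.6 and 76.1 CPM, so that the deviating libraries held the lowest uncut and the highest cut value. The interferon list had 21 of 41 members with a more negative change and isg20 more positive, with a median of −1.26 (23 and 4 without the 4). rsad2 in regular medium rose from 0.873, 0.582 and 0.377 CPM to 3.74, 12.4 and 19 CPM, the reverse of its course in 130 mM. Its difference was −8.97 ± 1.55 (adjusted p = 0.0019). This joins responses from unlike starting levels, as every uncut library in 130 mM held more rsad2 than any uncut one in regular medium. For ifi27.2 the difference was −7.97 ± 1.1 (adjusted p = 0.00033).

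Fewer members of other lists differed between these responses. AP-1 and immediate early genes had 10 of 74 members with a more positive change in 130 mM and ier5l more negative (46 and 7 without the 4). Hypoxia-responsive genes had 8 of 53 and, more negative, bnip3 and ca9 (16 and 9 without the 4). Over all 20120 genes the fit without the 4 called 4304 more positive and 3489 more negative. igfbp1a, which rose in 130 mM, had 122.6, 143.6 and 176.9 CPM in uncut larvae of regular medium and 139, 90.8 and 86.8 CPM at 3 h, and its difference was 2.15 ± 0.38 (adjusted p = 0.002). The uncut level of igfbp1a was lower in 130 mM than in regular medium in every library. The cell cycle list had 5 of 109 members more positive (cdkn1a, mcm2, mcm3, mcm4 and wee1), near the 3.95% of all genes. Without the 4 deviating libraries it had 68. The calls of bnip3, cdkn1a and mcm2 were lost in the fit of the 12 libraries alone. Neither il1b (difference 1.78, adjusted p = 0.17) nor mmp9 (0.20, adjusted p = 0.87) passed this test.

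Against 222 mM glucose, the difference of the 3 h responses was called for 1842 genes (9.16%), 1017 more positive in 130 mM (5.05%) and 825 more negative (4.1%). It was 3942 (19.6%) without the 4 deviating libraries, 2140 more positive and 1802 more negative. The count ranged from 747 to 3076 with 1 of the 12 left out. In 222 mM it was 1147 without the third uncut library, and 747 and 3076 without the first and the third 3 h library. In 130 mM it was 911 and 786 without the second and the third uncut library, and 1039 and 951 without the first and second 3 h library. Cell cycle genes had 35 of 109 members with a more positive change and none more negative, with a median difference of 1.2 (72 without the 4). cdc20 in 222 mM had 1.01, 1.02 and 2.72 CPM in uncut larvae and 1.24, 2.34 and 1.92 CPM at 3 h, and its difference was 1.97 ± 0.42 (adjusted p = 0.006). Proteasome genes were more positive in 27 of 45 cases and in none more negative (18 and 2 without the 4), cholesterol synthesis genes in 17 of 37 and none (27 and 0). For psmb5 the 222 mM levels were 61.6, 57.7 and 109 CPM before and 64.5, 60.7 and 99.8 CPM after the cut, the third library high in both, and the difference was 1.26 ± 0.25 (adjusted p = 0.0034). Neuron and synapse genes were more negative in 31 of 82 cases and in none more positive (41 and 1 without the 4), and photoreceptor genes in 12 of 72 (19 without the 4). Uncut levels of both lists differed between these media. The summed FPKM of the neuron list was 2013 to 2183 in uncut larvae of 130 mM and 1392 to 1838 in those of 222 mM. For the photoreceptor list it was 3468 to 3946 and 1812 to 2327. gnat2, the cone transducin, had 325, 346 and 367 CPM in uncut and 177, 233 and 193 CPM in 3 h larvae of 130 mM, against 133, 123.3 and 149 CPM and 211, 257 and 256 CPM in 222 mM. Its difference of −1.62 ± 0.18 (adjusted p = 5.5e-06) joins a fall in the one medium to a rise in the other, from uncut levels that did not overlap. Ribosomal proteins were more negative in 24 of 91 cases, with rps27l more positive, a call lost in 10 settings, and in 69 without the 4.

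The 3 h state was then set against that at 24 h in the same medium. Between these groups 4993 genes (24.8%) differed, 2256 higher at 24 h (11.2%) and 2737 lower (13.6%). Without the third 24 h library the count was 3137, and without the first 24 h library, which is 1 of the 4 that deviate, together with the other 3 it was 7418. Some lists that had risen at 3 h were lower at 24 h in many members. Lower were 60 of 109 cell cycle genes and 28 of 37 of cholesterol synthesis. So were 31 of 45 of the proteasome and 29 of 61 of the unfolded-protein response, with none higher in any of these 4 lists. Of 44 liver markers, however, 9 were higher at 24 h and 3 lower. Complement, clotting and acute-phase genes had 8 of 67 higher, near the 11.2% of all genes, and 3 lower (f11r.1, f3b and f5). The summed FPKM of the liver list was 4854 to 8396 at 24 h, 4217 to 5848 at 3 h and 2544 to 4005 in uncut larvae. The 3 h libraries enter both comparisons, and the levels are therefore given for each time. The summed FPKM of the cholesterol list was 400 to 421 at 24 h, within the 379 to 443 of uncut larvae, and that of the cell cycle list was 637 to 721 at 24 h and 499 to 536 at 48 h, against 518 to 538 in uncut larvae. il1b had 1.57, 1.28 and 2.1 CPM at 24 h and 2.42, 1.76 and 2.52 CPM at 48 h, all above the uncut libraries and below those at 3 h (24 h against 3 h, log2 change −2.44, adjusted p = 0.003). ptgs2b had 16.8, 9.52 and 15.1 CPM at 24 h and fell by 3.2 on the log2 scale from 3 h (adjusted p = 0.00045). hbegfa fell by 1.24 on that scale (adjusted p = 3.1e-05). cry3a went the other way, with 517, 471 and 468 CPM at 24 h and a log2 change of 1.32 (adjusted p = 1.4e-05). Macrophage genes were higher at 24 h in 16 of 37 cases and lower in 4 (apoeb, ctss2.1, ms4a17a.11 and slc7a7, the first of them not called without the 4 deviating libraries and the second not without the first 24 h library), and the mpeg1 copy that had fallen at 3 h rose by 1.45 (adjusted p = 0.0015). Of the neutrophil genes itgb2 and lyz were higher at 24 h, and mmp9, pnp5a and both mmp13a copies lower, 1 of the copies not without the first 3 h library. odc1 stood at 139 CPM in the deviating 24 h library and at 24.5 and 28.6 CPM in the others.

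**Figure D5:**
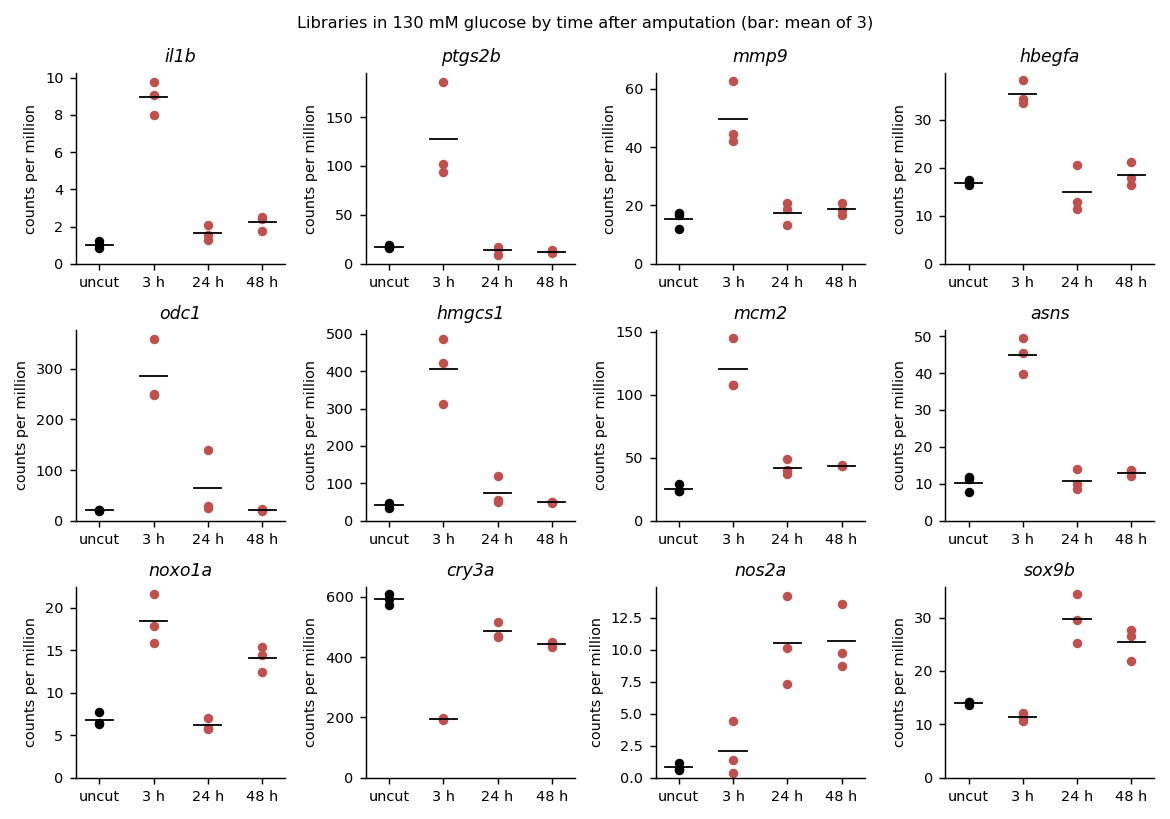
Levels of selected genes in CPM on axes that start at 0, in uncut larvae and at 3, 24 and 48 h after amputation in 130 mM glucose, 1 point per library and a bar at the mean. il1b reached 8.01 to 9.79 CPM at 3 h, stood at 1.28 to 2.1 CPM at 24 h and at 1.76 to 2.52 CPM at 48 h.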

How the data were processed

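Total RNA of whole larvae was sequenced as paired-end libraries, per the labels' protocols. The authors deposited 1 table of 30221 Ensembl genes with a count and an FPKM value for each of 36 libraries. The counts are whole numbers per gene, deposited without normalization. The FPKM values were scaled by the authors to transcript length and to mapped fragments. Per the submitters' processing notes, HISAT, StringTie, edgeR and the build GRCz11 were used. For the counting tool, its strand setting and the annotation release, nothing is given in the sources used here. Without strand, reads of overlapping or antisense genes cannot be told apart, and near-identical copies may share reads.

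Counts were scaled by TMM and fitted with edgeR 4.0.16 in R 4.3.3 (quasi-likelihood, robust, 1 mean per group, all 12 groups in 1 fit), for genes of at least 1 FPKM in at least 3 libraries. Adjusted p-values are Benjamini-Hochberg values over all 20120 genes, and SE is the log2 change divided by the root of F. The procedure was run on counts simulated from its own fitted means and spread, which cannot vouch for the calls in the real libraries. Alternatives used DESeq2 1.42.0, limma 3.58.1 on log2(FPKM + 0.1) and log2(FPKM + 1), median-ratio scaling, no filter, a replicate block and single libraries left out. The fit without the 4 deviating libraries was chosen after the data were seen.

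The comparison and the 46 gene lists were chosen with earlier results of these data known. Genes were named by a rule, which began with the 10 largest rises and the 10 largest falls. These were ranked among called genes of at least 5 FPKM, with no overlap between the groups and no clone name. The rule added up to 6 members of a list by size of change, fixed readouts, and the smallest adjusted p-values of the other tests. Among all genes so named, those whose call held under all alternatives were preferred after seeing the values. Members behind counts of 5 or fewer are named outside the rule. Every pair of libraries within a group differed by more than counting noise (lowest chi-square per degree of freedom 11.4). Results for a few genes are not reported here.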

Additional observations from a re-analysis of the deposited data

Results flagged for a closer look

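The difference between the 3 h responses passed its test for the genes given here, and this difference is why each is listed. They had the smallest adjusted p-values among genes of at least 5 FPKM without a clone name. Against regular medium, interferon-responsive genes led. The difference of the log2 changes, 130 mM minus regular medium, was −3.33 ± 0.39 (SE) for ifi46 (adjusted p = 2e-05), −5.89 ± 0.73 for ifi27.6 (adjusted p = 5.9e-05) and −2.42 ± 0.32 for mov10b.1 (adjusted p = 9.7e-05). It was −7.97 ± 1.1 for ifi27.2 (adjusted p = 0.00033) and −3.88 ± 0.60 for ifi27.3 (adjusted p = 0.00052). For ifi46 the libraries in regular medium had 4.88, 4.35 and 3.62 CPM uncut and 12.6, 18.6 and 23.5 CPM at 3 h. Those in 130 mM had 6.57, 13.1 and 12 CPM uncut and 5.13, 4.41 and 3.70 CPM at 3 h. The uncut libraries of ifi46 thus lay higher in 130 mM than in regular medium. The genes of the ifi27 family are similar, and the split of reads between them is uncertain. mid1ip1b, a regulator of fatty acid synthesis, had a difference of 1.24 ± 0.19 (adjusted p = 0.00038), fam210aa one of 1.32 ± 0.21 (adjusted p = 0.00055) and ino80e one of −1.66 ± 0.26 (adjusted p = 0.00052).

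Against 222 mM glucose, cone genes stood out. The difference of the log2 changes, 130 mM minus 222 mM, was −1.62 ± 0.18 for gnat2 (adjusted p = 5.5e-06), −1.56 for the opsin opn1sw1 (adjusted p = 0.00013) and −1.75 for the opsin opn1sw2 (adjusted p = 0.00031). It was −1.26 ± 0.18 for the cohesin gene rad21b (adjusted p = 0.00017), −0.87 ± 0.13 for hgd (adjusted p = 0.00032) and −1.34 ± 0.20 for selenow1 (adjusted p = 0.00032). Positive differences were those of tmem161a, 1.25 ± 0.18 (adjusted p = 0.00024), and of atp1a2a, a sodium pump subunit, 1.25 ± 0.19 (adjusted p = 0.00033). All of these calls held under each of the alternatives run.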

How the results depend on the processing

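The 3 h response in 130 mM had 7302 to 10147 called genes, against 7692, under another scaling, no filter, DESeq2, limma, fewer libraries in the fit or without the 4 deviating libraries, and 5854 to 6742 with 1 library left out. At a log2 change beyond 1 and unadjusted p under 0.05 it had 2041. Of 282 named genes called, 229 were called in all 14 alternatives and none reversed, but these genes were picked for large changes and for such calls, so that the count says nothing of other genes. The difference from regular medium was called for 7793 genes without the 4 deviating libraries, for 111 in a fit of the compared libraries alone and for 316 to 4115 with 1 library left out. The difference from 222 mM had 3942, 1132 and 747 to 3076 in the same settings. For 24 h against 3 h, 3137 to 5044 genes were called with 1 library left out and 1258 at the log2 criterion. The cause was not tested. Same-numbered libraries of the uncut and 3 h groups deviated from their group means with r = 0.0455, 0.0252 and 0.0505 in 130 mM, 0.321, −0.247 and 0.264 in regular medium and 0.174, 0.152 and 0.389 in 222 mM. In 130 mM each 3 h library correlated more with the uncut library of its own number than with those of other numbers. The highest values with other numbers were −0.0121, −0.00929 and −0.00875. All 3 pairs passed 0.1 in 222 mM alone, where the first 3 h library correlated more with an uncut library of another number (0.192). The labels do not say what a number marks. With the replicate number as a block the counts were 7715, 1403, 1780 and 4908 in the order of the comparisons. Depth limits rare transcripts such as those of lepb, with under 1 CPM in uncut larvae.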

Other observations

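zgc:92590, a gene of the list of pancreatic digestive enzymes, was at 0 counts in all 3 uncut libraries in 130 mM and had 30.8, 13.3 and 16.2 CPM at 3 h. In uncut larvae of regular medium it had 23.9, 49.5 and 27.1 CPM, and in those of 222 mM 20.4, 35.5 and 5.81 CPM. It was also near 0 in single libraries of other groups, with 0.0508 CPM in the first 24 h library in 130 mM, where the others had 51.9 and 37.1 CPM, and with 0.0662 and 0.449 CPM in the first and the third 3 h libraries in 222 mM, where the second had 49.1 CPM.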
